A study of Drosophila melanogaster with 24 samples.

Results

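The comparison of H3.3S31A with OreR, the wild-type control, in the brain of adult female Drosophila melanogaster 1 day after eclosion used 6 of the 24 libraries of an ATAC-seq series, chosen by their labels, and all 11145 peaks of the deposited count table. H3.3S31A carries alanine in place of serine 31 of the replacement histone H3.3, and OreR is the Oregon-R laboratory strain. Each group held 3 libraries. The series also sampled H3.3H3.2, which as its name reads has H3.2 in place of H3.3, and H3.3null, which lacks H3.3, and it sampled all 4 genotypes again at day 10, with 3 libraries in each group. The labels name a pool of 8 brains in their extraction text. No group carries wild-type H3.3 in the stock of H3.3S31A, so the residue and the rest of the stock cannot be told apart in a comparison with OreR. The labels do not say whether libraries of a group came from separate cultures, so the p-values measure the spread between these libraries, which may be technical.

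ATAC-seq maps open chromatin by tagging the DNA that a transposase can reach. H3.3 is put into chromatin outside DNA replication, mainly over transcribed genes, regulatory elements and some repeats, and it is therefore the form of H3 that non-dividing cells such as neurons can keep adding. Serine 31 is one of the few residues that set H3.3 apart from the replicative H3.2, which has alanine there. In vertebrate cells serine 31 is phosphorylated in mitosis, near centromeres among other places, and at some genes that are switched on by signals.

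The counts summed to between 3501589 and 4580984 per library in the compared groups, with TMM scaling factors of 0.970 to 1.02 and a median of 253 counts per peak and library. Pairs of replicates correlated at 0.956 to 0.982 (Pearson r of log2 CPM across peaks, which are not independent replicates), and each pair differed by more than counting noise. OreR replicate 1 was lower than the other OreR libraries, and H3.3S31A replicate 3 higher than the other H3.3S31A libraries, in the summed level of peaks near the centromere of chromosome 3 and of 2R, so the counts of calls that rest on them are given with and without them. As a check of the tissue, the 10 genes of the neuron marker list all had a peak, with summed levels of 4465 to 4597 CPM in OreR and 4707 to 4762 CPM in H3.3S31A, without overlap. Of their 42 peaks 2 were higher, at Syt1 and fne. The part of the neuron sums in the other results was not tested. Glial markers had a peak at 7 of 8 genes, with 0 of 13 peaks called. Of the marker lists for other cells, muscle genes had a peak at 1 of 14 genes, tracheal genes at 1 of 4, fat body genes at 4 of 11, hemocyte genes at 4 of 9, photoreceptor genes at 7 of 16 and germline genes at 5 of 9.

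Values are normalised read counts relative to library size, as CPM with TMM scaling, and fold changes are log2 values of H3.3S31A over OreR with their standard error (SE). The SE was derived from the test statistic of the fit to all 24 libraries, not from the 3 libraries of each group alone. Of the 11145 peaks, 1171 (10.5%) were called at an adjusted p under 0.05 (edgeR quasi-likelihood test, Benjamini-Hochberg adjustment over all peaks), and 2241 (20.1%) had an unadjusted p under 0.05. Accessibility was higher in H3.3S31A at 695 peaks (6.24%) and lower at 476 (4.27%). In bulk brain, a change in the number of cells of a type and a change in signal per cell cannot be told apart. Most differences were small: the median absolute log2 fold change was 0.70 among the higher and 0.55 among the lower peaks, and 77 higher and 64 lower peaks reached 1. The 3 libraries of one group all lay above the 3 of the other at 671 of the 695 higher and 417 of the 476 lower peaks, against 2370 of all 11145 peaks (21.3%). The balance of the directions moved with single libraries: there were 591 higher and 317 lower calls without H3.3S31A replicate 1, 609 and 567 without replicate 3, and 627 and 598 without OreR replicate 1.

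The called peaks were not spread evenly over the genome. Arm 2R held 368 higher and 102 lower calls among 2417 peaks (19.4% called), while 2L held 79 higher and 64 lower of 1692 and X held 75 higher and 93 lower of 2176. Arm 3L held 103 higher and 112 lower of 2315, and 3R held 69 higher and 99 lower of 2468. Chromosome 4 held 1 higher and 6 lower calls among 77 peaks.

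**Figure D1:**
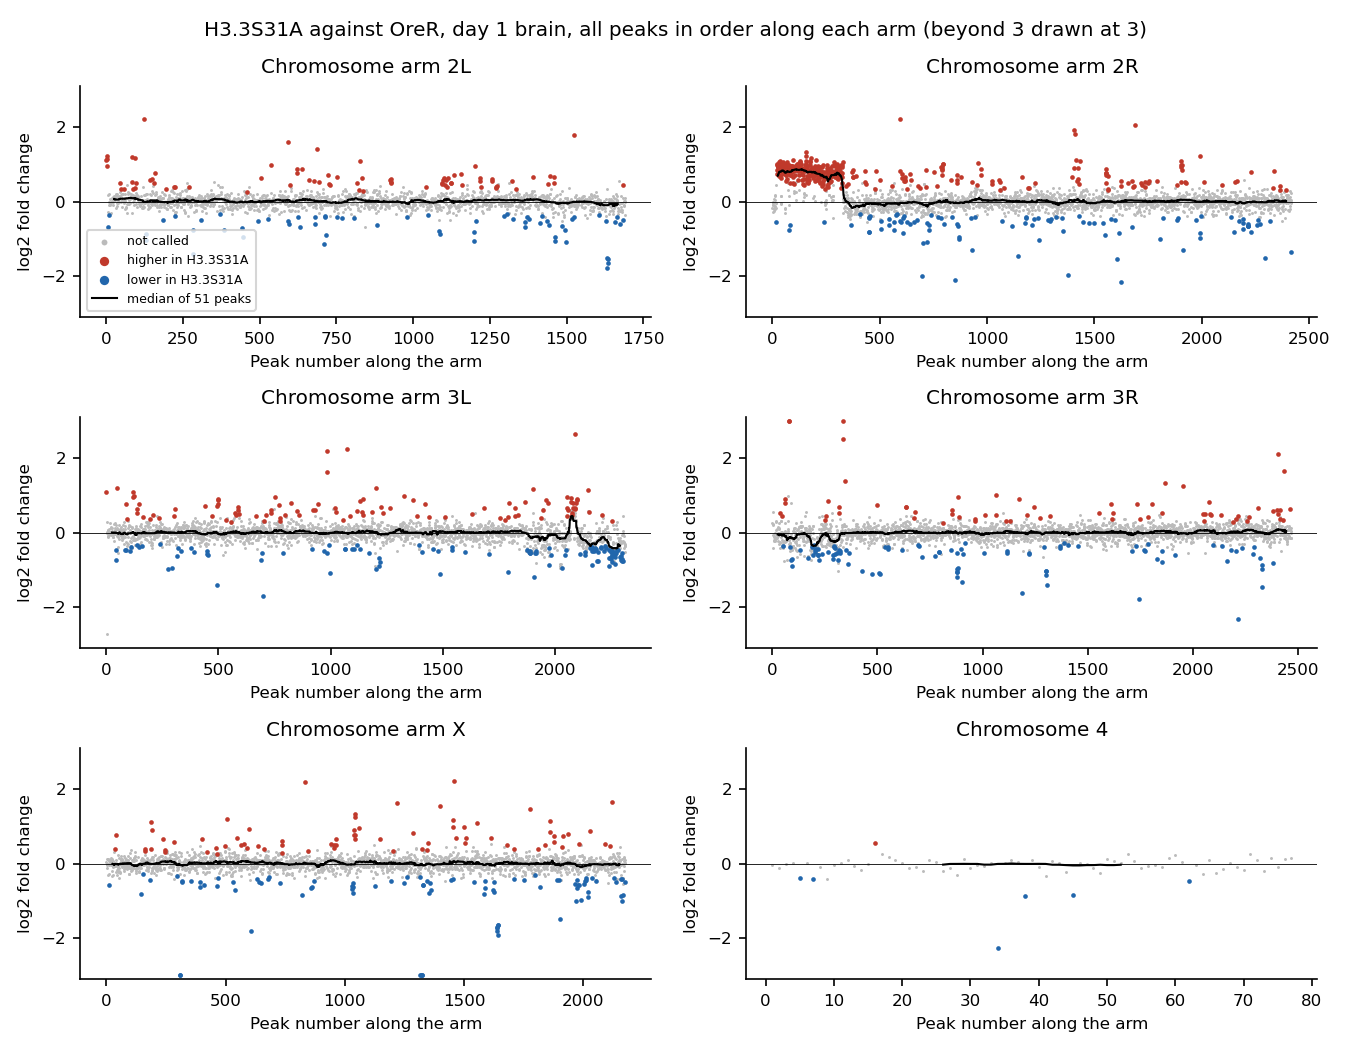
Log2 fold change of H3.3S31A over OreR at day 1 (y axis) for every peak in its order along each arm (x axis). Red points are higher, blue points lower and grey points not called, the line is the running median of 51 peaks, and values beyond 3 are drawn at 3; on 2R the line rises above 0.25 over the stretch near the centromere, to 0.87, while the lines of the other arms stay close to 0 outside their centromere-near ends.

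Most of the higher calls on 2R lay in a single stretch next to the centromere. Between 2R:351012-1432231 (dm6), where the running median over 51 peaks stayed above 0.25, 253 of 306 peaks were higher and 3 lower, with a median log2 fold change of 0.78. The limits of this stretch were taken from these fold changes, so its counts and its median describe it and are no test. It held 36.4% of all higher calls, and with any 1 of the 6 libraries left out 233 to 252 of its peaks were higher. The limits found with all 6 libraries were kept for those counts, so they are no test either. Outside it, 442 peaks were higher and 473 lower of 10839 (8.44%), and the rest of 2R had 115 higher and 99 lower of 2111 (10.1%). 

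The stretch holds DIP-lambda, a cell-surface protein of the immunoglobulin superfamily that binds partners of the Dpr family, and rl (rolled), the ERK-type MAP kinase of the fly. Of 115 peaks at DIP-lambda within it, 96 were higher. At rl 15 of 16 peaks were higher, with a median log2 fold change of 0.73. A further 139 peaks of the stretch had no gene within 2000 bp. Summed over the peaks of DIP-lambda, the 3 OreR libraries held 9414, 11804 and 12336 CPM and the 3 H3.3S31A libraries 16727, 15481 and 18698 CPM. All 3 mutant libraries lay above all 3 wild-type libraries there. Summed over rl, the OreR libraries held 1390, 1724 and 1819 CPM and the H3.3S31A libraries 2231, 2053 and 2394 CPM, again without overlap. Most or all peaks of these genes lie in the stretch chosen by its fold changes, so the separation describes it and is no test.

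Relative to the OreR mean, the median over the 306 peaks was -0.23, 0.09 and 0.15 (log2) in OreR replicates 1 to 3 and 0.78, 0.64 and 0.90 in those of H3.3S31A. The lowest mutant library stood above the highest wild-type library. Because the stretch was chosen by the fold changes of these same libraries, this separation is no test. The raised level was shared by the other altered genotypes at day 1, with library medians of 0.80 to 0.99 in H3.3H3.2 and 0.60 to 0.76 in H3.3null. The median difference of H3.3S31A was -0.09 from H3.3H3.2 and 0.10 from H3.3null. In the H3.3S31A libraries of day 10, set against OreR of day 10, the median was 0.84. With ATAC counts alone, a more open site and more copies of its DNA cannot be told apart.

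The pericentromeric ends of chromosome 3 leaned the other way. Among 796 peaks there, on 3L above 23 Mb and on 3R below 4 Mb, 40 were higher and 92 lower (16.6% called), with a median of -0.14. The library medians overlapped between the groups: -0.24, 0.10 and 0.15 in OreR, and -0.18, -0.25 and 0.03 in H3.3S31A. The count of lower calls turned on single libraries. It was 169 without OreR replicate 1, 38 without replicate 2 and 34 without replicate 3, and 30, 31 and 187 without H3.3S31A replicates 1, 2 and 3. At day 10 the median of the same peaks was -0.05. At the other chromosome ends near centromeres, 1 peak was higher and 10 lower of 100 (11%) on 2L above 22 Mb, and 3 were higher and 8 lower of 120 (9.17%) on X above 22 Mb, against 7.57% on the arms outside all these ends and chromosome 4.

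The leading lower site on 3L lay inside CG40470 (3L:23848606-23849739), with 1216, 1327 and 1499 CPM in OreR and 724, 580 and 478 CPM in H3.3S31A. Its log2 fold change was -1.18 ± 0.14 (SE, n = 3 a group; edgeR adjusted p = 4.1e-08). The groups did not overlap. The leading higher site lay 5017 bp from Spf30, a splicing factor gene (3L:23709352-23710006), with 24.8, 29.6 and 31.4 CPM in OreR and 67.7, 57.2 and 67.3 CPM in H3.3S31A (log2 1.16 ± 0.15, edgeR adjusted p = 1.7e-07). The difference of H3.3S31A from H3.3H3.2 was 0.14 ± 0.14 at CG40470 and -0.04 ± 0.13 near Spf30, and neither passed.

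Outside the pericentromeric ends and chromosome 4, calls were close to balanced, with 376 higher and 339 lower of 9450 peaks (7.57%). Of the 3 positions relative to genes there, peaks between genes had the highest share, at 79 higher and 78 lower of 1326 (11.8%). Peaks inside genes had 165 higher and 154 lower of 4063 (7.85%), and peaks whose centre lay within 500 bp of either end of a gene had 132 higher and 107 lower of 4061 (5.89%). The classes are not matched for width or level. Over the whole table, 22.4% of peaks wider than 1000 bp were called, against 9.58% of peaks of 300 to 1000 bp and 7.42% of narrower ones. By mean level the share ran from 9.66% to 12.2% across 4 equal classes of peaks.

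**Figure D2:**
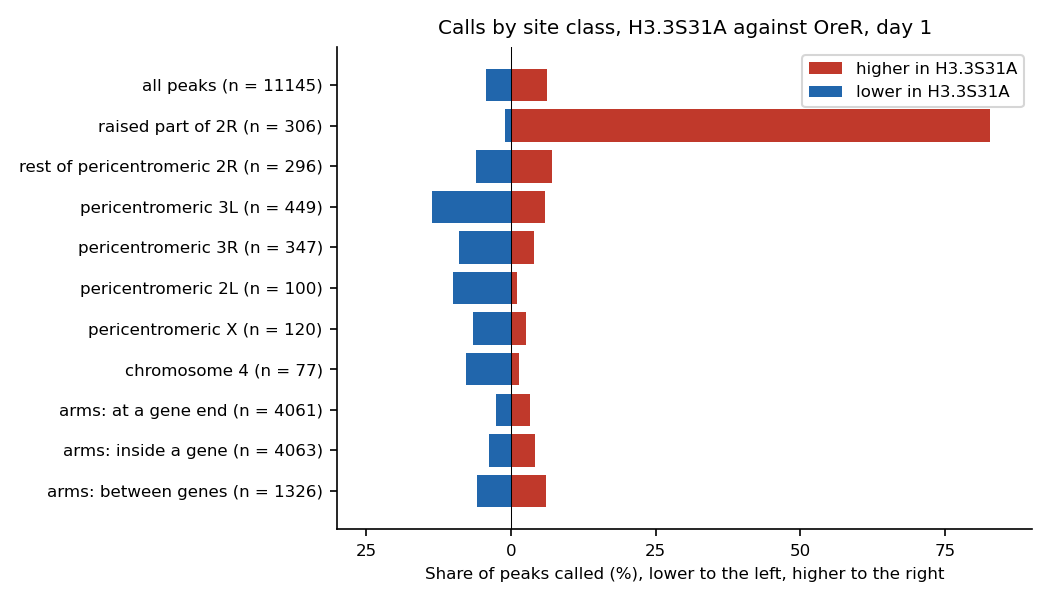
Share of peaks called in H3.3S31A against OreR at day 1 (x axis, percent), to the right for higher and to the left for lower peaks, for each site class (y axis, with its number of peaks). The raised part of 2R stands out at 83.7% called by its construction, and of the classes on the arms, peaks between genes had the largest share at 11.8%.

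The peaks with the smallest p in the higher direction lay on every large arm. The first lay between genes on 3R, 9305 bp from CG15550 (3R:30946407-30946702), with 13.5, 17.8 and 20.6 CPM in OreR and 73.0, 74.1 and 79.3 CPM in H3.3S31A. Its log2 fold change was 2.11 ± 0.13 (SE, n = 3; edgeR adjusted p = 5.7e-15). The lowest mutant library was more than 3 times the highest wild-type library. A peak inside lncRNA:CR45232, a long noncoding RNA gene (2R:16298158-16298543), followed with 54.6, 46.2 and 48.8 CPM against 225, 180 and 213 CPM (log2 2.05 ± 0.13, edgeR adjusted p = 1.2e-14). A peak inside Chpf, which makes chondroitin chains (X:13100605-13101099), had 52.3, 62.8 and 60.1 CPM against 196, 158 and 186 CPM (log2 1.62 ± 0.11). These peaks were chosen for a small p and for groups that do not overlap, so their wide separation comes with the choice.

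The other leading higher peaks lay at an end of sordd2 on X (log2 2.22 ± 0.15), at CG18278 on 2R (1.93 ± 0.13), inside Ir41a on 2R, an ionotropic chemoreceptor gene (2.20 ± 0.17), and inside RapGAP1 on 2L, which switches off the GTPase Rap1 (1.59 ± 0.13). Usp2, a ubiquitin protease gene at the centromere-near end of X, held another (1.66 ± 0.15). At Usp2 the OreR libraries had 17.4, 19.4 and 19.6 CPM and the H3.3S31A libraries 51, 72.5 and 56.6 CPM. A peak 310 bp from lncRNA:CR43912 on 3L reached 2.23 ± 0.19. The remaining pair lay in the raised part of 2R, 35316 bp from DIP-lambda (1.33 ± 0.12) and 2715 bp from CG40498 (1.18 ± 0.11).

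One leading higher peak differed from the others in its pattern over genotypes. It lay 6198 bp from lncRNA:CR44507 (X:8700698-8701015), with 8.16, 6.40 and 9.10 CPM in OreR and 38.6, 37.1 and 32.8 CPM in H3.3S31A (log2 2.20 ± 0.22, edgeR adjusted p = 1.1e-09). H3.3S31A also exceeded H3.3null there by 2.33 ± 0.22 (edgeR adjusted p = 1.4e-10). Against H3.3H3.2 the difference was -0.36 ± 0.17 and did not pass (edgeR adjusted p = 0.59).

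**Figure D3:**
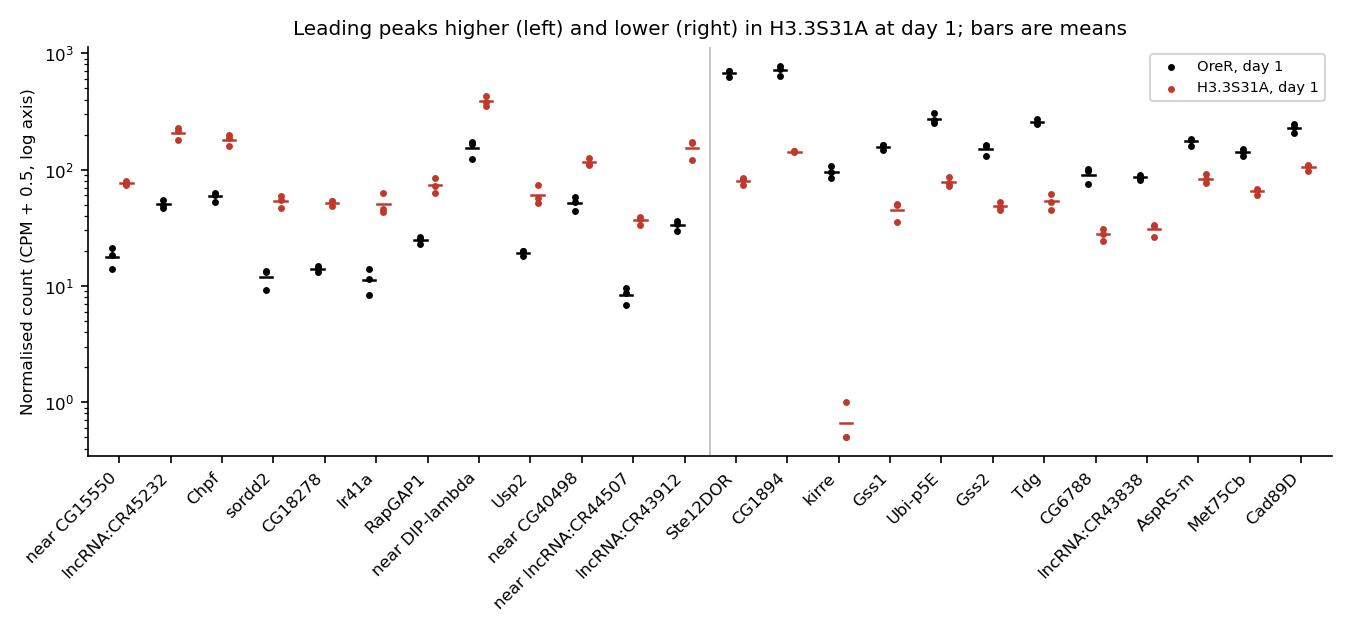
Normalised counts (CPM + 0.5, log axis) of the 12 peaks with the smallest p in each direction, for the 3 OreR (black) and 3 H3.3S31A (red) libraries of day 1, with bars at the means. The groups do not overlap at any of the 24 peaks, as the choice of these peaks requires, and at kirre the mutant libraries are at or near 0.

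The peak with the smallest p in the comparison, in either direction, was at the Stellate repeats of X. Stellate genes (Ste) are tandem copies that encode a protein related to the beta subunit of casein kinase 2 and are held silent by small RNAs in the testis. Of 5 peaks at 13 Ste genes, 4 were lower and 1 was not called. The peak at Ste12DOR (X:13999847-14000896) had 620, 701 and 701 CPM in OreR and 82.9, 73.3 and 83.7 CPM in H3.3S31A, a log2 fold change of -3.07 ± 0.11 (SE, n = 3; edgeR adjusted p = 1.3e-22). The wide peak over 10 Ste copies (X:14046693-14058848) gave -3.35 ± 0.14. The peak that was not called lay 1322 bp from Ste:CG33236 (X:14063139-14063489), outside the repeats, with a log2 fold change of -0.04 ± 0.16 (edgeR adjusted p = 0.94).

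Summed over the 5 Stellate peaks, OreR held 9431 to 11351 CPM and H3.3S31A 1024 to 1179 CPM. The lower level was shared by the other altered genotypes at day 1. At Ste12DOR the means were 674 CPM in OreR, 80.0 in H3.3S31A, 91.0 in H3.3H3.2 and 50.9 in H3.3null. At the called peaks H3.3S31A was above H3.3null, by 0.65 ± 0.11 at Ste12DOR and by 1.63 ± 0.14 at the wide peak. Its differences from H3.3H3.2 there were -0.18 ± 0.11 and -0.14 ± 0.13, and neither passed. The copies are near-identical, so how the authors' counting shared reads among them is uncertain, and so is the share of each copy.

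Both sites that were empty or nearly so in H3.3S31A and well covered in OreR lay at w and kirre on X. The gene w (white) encodes a transporter of eye pigment precursors, and kirre encodes an immunoglobulin cell adhesion protein known from muscle founder cells. At an end of w, within the span of kirre (X:2796057-2796767), the OreR libraries had 158, 146 and 158 counts and the H3.3S31A libraries 0, 0 and 0. With a floor of 3 counts a library set against the OreR mean, the level was at least 47.6-fold lower in H3.3S31A. Farther into kirre (X:2888113-2888708) the counts were 379, 399 and 353 in OreR and 0, 0 and 2 in H3.3S31A, at least 116-fold lower. The neighbouring peak over w (X:2789752-2793256) had 228, 262 and 244 CPM in OreR and 262, 236 and 262 CPM in H3.3S31A (log2 0.05 ± 0.10).

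The losses at w and kirre divided the altered genotypes. H3.3H3.2 libraries of day 1 had 0 to 0.443 CPM at these peaks, while H3.3null libraries had 117, 125 and 129 CPM at the end of w and 124, 107 and 93.2 CPM at kirre. H3.3null also had 800, 809 and 805 CPM at the neighbouring peak over w. In H3.3S31A of day 10 the kirre peak had 0 CPM in all 3 libraries and the peak at the end of w had 0, 0 and 2 CPM. The DNA sequence of the stocks was not analysed here, so an absent site and a closed site cannot be told apart.

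One site was empty in OreR at day 1. It lay between genes on 3R, 43745 bp from CG41099 (3R:3912146-3912501), with 2, 2 and 2 counts in OreR and 180, 69 and 46 counts in H3.3S31A. Against a floor of 3 counts a library, the H3.3S31A mean of 23.1 CPM was at least 27.4-fold higher. That bound holds for the mean, which replicate 1 raised, and not for each library. The mutant libraries differed widely among themselves there. OreR libraries of day 10 had 0, 18.4 and 9.32 CPM at the same site, so the wild-type level was not the same in all libraries. The peak beside it (3R:3910981-3911698) had 5.06, 10.4 and 8.14 CPM in OreR and 68.6, 33 and 34 CPM in H3.3S31A (log2 2.51 ± 0.48, edgeR adjusted p = 0.0015).

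Among the other leading lower peaks, one inside CG1894 on 3R (3R:28484257-28486812) had 640, 782 and 724 CPM in OreR and 140, 144 and 144 CPM in H3.3S31A (log2 -2.33 ± 0.11, edgeR adjusted p = 3.2e-19). Ubi-p5E, a polyubiquitin gene on X, was at -1.82 ± 0.12. Tdg, a thymine DNA glycosylase gene on chromosome 4, had 246, 250 and 270 CPM against 52.5, 44.7 and 61.4 CPM (log2 -2.27 ± 0.14). AspRS-m, which encodes the mitochondrial aspartyl-tRNA synthetase, was at -1.07 ± 0.09 and Cad89D, a cadherin gene, at -1.13 ± 0.10. The lower list was completed by Met75Cb on 3L (-1.12 ± 0.10), lncRNA:CR43838 on X (-1.49 ± 0.12) and the cluster of glutathione synthetase genes on X.

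Some called peaks lay next to other called peaks of the same direction. Outside the raised part of 2R, 33.5% of higher and 33.2% of lower calls had such a neighbour as the next peak, at most 10000 bp away. The others had no called neighbour of the same direction by this rule. The share to be had from an even placement of the calls was not tested. There, 14 runs of at least 3 neighbouring higher peaks held 53 calls and 21 runs of lower peaks held 75. The glutathione synthetase cluster was one of the lower runs: 6 peaks over CG6788, Gss1, CR32496 and Gss2 (X:17888523-17905920) lay between -1.90 and -1.64. At Gss1 the OreR libraries had 147, 161 and 163 CPM and the H3.3S31A libraries 49.7, 34.9 and 48.7 CPM. Gss1 and Gss2 are neighbouring copies of 1 gene, so the share of each is uncertain. H3.3S31A was also below H3.3null over this run, with a median of -1.24, and its median difference from H3.3H3.2 was -0.14.

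Further lower runs covered CG45076, fau, Desi and mRpL37 on 3R (6 peaks, median -1.01), Cad89D and Decay, a caspase gene, on 3R (4 peaks, median -1.08), and lncRNA:CR46268 on 2L (4 peaks, median -1.59). The higher runs covered Dscam1 on 2R (6 peaks, median 0.89), Ir10a on X (6 peaks, 0.83), hppy, a protein kinase gene of 2R (5 peaks, 0.97), Adgf-E and Targ on 2R (5 peaks, 0.75), and the first 4 peaks of 2L at CR11023 (1.14). Each of these runs was chosen by its calls, so its median describes it only. From H3.3H3.2 the median differences of the higher runs were -0.13, 0.04, -0.12, -0.19 and -0.08 in the order given. From H3.3null they were 0.06, 0.05, -0.17, -0.04 and -0.53. For the lower runs at CG45076, Cad89D and lncRNA:CR46268 they were -0.50, -0.05 and -0.30 from H3.3H3.2. From H3.3null those lower runs were at 0.08, 0.003 and -0.39. Medians against OreR of day 10 had the same sign in all of these runs, from -1.68 at the glutathione synthetase cluster to 1.30 at CR11023.

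Wiring genes, which encode cell-surface proteins that guide axons and synaptic partners, had 395 peaks at 95 genes, of which 116 were higher and 13 lower. Of these peaks, 115 lay at DIP-lambda in the raised part of 2R. Outside that stretch, 20 were higher and 11 lower of 280 (11.1%), against 8.44% of all peaks outside it. Of the 20, 5 were peaks of DIP-lambda that border the stretch (2R:329233-350960), and without them 15 were higher and 11 lower of 275 (9.45%). Dscam1, which encodes a very large set of adhesion isoforms by splicing, was higher at 6 of its 9 peaks. Its strongest peak (2R:7345857-7346912) had 72.9, 77.8 and 77.1 CPM in OreR and 151, 147 and 163 CPM in H3.3S31A (log2 1.02 ± 0.11, edgeR adjusted p = 5.8e-09). Its groups were far apart.

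Smaller higher values were called at CadN, the neural cadherin (0.54 ± 0.09 at its leading peak), beat-Ib (0.49 ± 0.10), beat-IIIc (0.54 ± 0.11), Ten-m, a teneurin (0.65 ± 0.13), and dpr6 (0.78 ± 0.16). Lower values were called at robo2, a Slit receptor, at 2 peaks (-1.03 ± 0.13 and -0.87 ± 0.12). At the first of these, OreR had 66.7, 73.5 and 75.2 CPM and H3.3S31A 35.4, 33.8 and 36 CPM. Lower values were also called at side-VI (-1.32 ± 0.15), dpr8, dpr13, Nrx-1, the neurexin gene (-0.30 ± 0.10), and at 2 more peaks of kirre.

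Genes of the synaptic vesicle cycle and the active zone had 6 higher and 1 lower of 118 peaks (5.93%), all outside the raised part of 2R, where 8.44% of all peaks were called. With the replicate number as a block the list had 8 higher and 7 lower peaks. CASK, a scaffold of the synapse, held both signs at adjoining peaks. The first (3R:21814591-21815072) had 102, 110 and 92.1 CPM in OreR and 27.4, 29.2 and 32 CPM in H3.3S31A (log2 -1.78 ± 0.16, edgeR adjusted p = 3.6e-10). The next (3R:21815115-21815545) was higher by 0.38 ± 0.12. Sytbeta, a synaptotagmin, was higher by 1.21 ± 0.21, with H3.3S31A libraries spread over 68, 29.2 and 52.4 CPM. Snap25, a SNARE protein, was higher at 2 peaks (0.62 ± 0.15 and 0.40 ± 0.13), as were Syt1, the calcium sensor of release (0.40 ± 0.12), and unc-104, the kinesin of vesicle precursors (0.45 ± 0.13). The call at Syt1 was lost with the compared groups fitted alone and without H3.3S31A replicate 1 or 3 or OreR replicate 1 or 2.

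Neurotransmission genes had 4 higher and 3 lower of 125 peaks (5.60%), against 8.44% of all peaks outside the raised part of 2R. Rdl, a subunit of the GABA-gated chloride channel, was higher at 2 adjoining peaks. At the first (3L:9164720-9165519) OreR had 88.6, 84.4 and 78.3 CPM and H3.3S31A 128, 123 and 134 CPM (log2 0.62 ± 0.10, edgeR adjusted p = 6.3e-06). Ddc, which makes dopamine and serotonin, was lower, at -0.67 ± 0.13. Octbeta2R, an octopamine receptor, was at -0.56 ± 0.11 and Dop1R1, a dopamine receptor, at 0.32 ± 0.09. nAChRalpha6, a nicotinic receptor subunit, had 1 higher (0.65 ± 0.14) and 1 lower peak (-0.42 ± 0.10).

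Genes of the ion channel list had 0 higher and 1 lower of 93 peaks (1.08%), the lower one at Shab, a potassium channel (-0.30 ± 0.09). The list did not hold Shawl, another potassium channel gene, which was lower at 4 of its 7 peaks. The call at Shab was lost with the compared groups fitted alone, with the replicate block, and without H3.3S31A replicate 3 or OreR replicate 2. Neuropeptide and receptor genes had 2 higher and 3 lower of 60 (8.33%), close to the 8.44% of all peaks outside the raised part of 2R. A peak shared by amn, a neuropeptide gene known from memory, and Hers was higher by 0.49 ± 0.11, while Proc-R, the proctolin receptor, was at -0.60 ± 0.14 and InR, the insulin receptor, at -0.37 ± 0.11. Memory signalling genes had 4 higher and 2 lower of 72 (8.33%), close to the same share. Both lower peaks were at or near for (foraging), a cGMP-dependent protein kinase. The one inside the gene had 45.6, 41.3 and 34.5 CPM in OreR and 15, 19.4 and 11.4 CPM in H3.3S31A (log2 -1.41 ± 0.21, edgeR adjusted p = 3.4e-06). The gene rg (rugose), which anchors protein kinase A, was higher at 2 peaks (1.2 ± 0.17 and 0.46 ± 0.13).

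The ecdysone response list, nuclear receptors and early genes of the moulting hormone, had 3 higher and 8 lower of 166 peaks (6.63%). Of all peaks outside the raised part of 2R, 8.44% were called. All 3 higher peaks were in Hr4, a nuclear receptor gene, the leading one (X:1954937-1955330) with 18.6, 22 and 29.9 CPM in OreR and 46.5, 54.2 and 52.4 CPM in H3.3S31A (log2 1.11 ± 0.16, edgeR adjusted p = 1.3e-06). Another peak of Hr4 was lower (-0.44 ± 0.12). The other lower peaks were at EcR, the ecdysone receptor (-0.56 ± 0.12 and -0.49 ± 0.14), Hr51 (-0.83 ± 0.14), Eip75B (-0.44 ± 0.12), Eip74EF (-0.53 ± 0.16), Eip93F (-0.46 ± 0.15) and br (-0.28 ± 0.09). Without single libraries the lower calls of this list numbered 4 to 8.

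The list of neural identity genes had 5 higher and 6 lower of 150 peaks (7.33%), against 8.44% of all peaks outside the raised part of 2R. The gene ct (cut), a homeodomain factor, was higher at 3 neighbouring peaks, by 0.61 ± 0.11, 0.50 ± 0.09 and 0.27 ± 0.09. The other higher calls were at chinmo and at fne, which is also on the neuron marker list. The lower calls included grh (-1.01 ± 0.18), toy on chromosome 4 (-0.46 ± 0.09), bsh, bab2 and pros (-0.27 ± 0.09). Hox genes had 0 of 31 peaks called, and the smallest adjusted p among them belonged to a peak in bcd (log2 -0.41 ± 0.16, edgeR adjusted p = 0.12). Glial genes had 0 of 34 called, and clock genes had 0 higher and 1 lower of 40 (2.50%), at per (-0.35 ± 0.10). The call at per was lost with the compared groups fitted alone, with the replicate block, and without H3.3S31A replicate 1 or 3 or OreR replicate 1.

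Chromatin regulator genes had 1 higher and 4 lower of 97 peaks (5.15%), against 8.44% of all peaks outside the raised part of 2R. The higher one was at CTCF, an insulator protein, with 38.3, 51 and 42.8 CPM in OreR and 51.9, 81.5 and 81.5 CPM in H3.3S31A (log2 0.69 ± 0.14). The lower ones were near psq (-1.46 ± 0.20), at mod(mdg4), another insulator gene (-0.51 ± 0.15), in gpp, the methyltransferase of H3 lysine 79 (-0.39 ± 0.12), and in osa, a subunit of a SWI/SNF remodeller (-0.28 ± 0.09). Without single libraries the lower calls numbered 1 to 4. The list of the H3.3 genes, their chaperones and kinases of serine 31 had 0 of 25 peaks called. Its smallest adjusted p was at Hira, a chaperone that deposits H3.3 (log2 -0.32 ± 0.14, edgeR adjusted p = 0.17). The 5 peaks at His3.3A and His3.3B had log2 fold changes between -0.08 and 0.07. A count over a peak does not show a changed codon, so these peaks do not check the label.

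Stress and immune lists had small numbers of peaks, to be read against the 8.44% called outside the raised part of 2R. Of 21 heat shock peaks 1 was higher (4.76%), at stv, a co-chaperone (0.45 ± 0.12), where the groups overlapped. That call was lost with the compared groups fitted alone and without H3.3S31A replicate 2. Of 26 innate immune peaks 2 were higher, at PGRP-LA and at Dro, an antimicrobial peptide gene (0.31 ± 0.10), and 1 was lower, at PGRP-SC1a (-0.41 ± 0.13). Of 40 peaks at activity-regulated genes 1 was lower, in kay, the fly Fos (-0.68 ± 0.10), and 1 was higher, at puc, a phosphatase of JNK (0.54 ± 0.16). Of the 9 peaks at hemocyte markers 33.3% were called: PPO2 and eater were higher at 1 peak each (0.72 ± 0.14 and 0.48 ± 0.16) and lz was lower (-0.64 ± 0.15). The median log2 fold change of the hemocyte list was -0.10, opposite in sign to the difference of its summed level. The list's summed level was 391 to 469 CPM in OreR and 485 to 510 CPM in H3.3S31A, and its part in the immune calls was not tested.

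Among genes for the basic machinery of the cell, cytosolic ribosomal proteins had 4 higher and 1 lower of 63 peaks (7.94%), led by RpL36A (0.88 ± 0.17), against 8.44% of all peaks outside the raised part of 2R. Proteasome genes had 2 higher of 16 (12.5%), at Prosalpha4 (0.70 ± 0.12) and Rpn6 (0.69 ± 0.13). Mitochondrial genes had 3 higher and 2 lower of 56 (8.93%), with mRpL37 at -0.96 ± 0.15. Transfer RNA genes had 6 higher and 1 lower of 101 (6.93%), led by a peak at tRNA:Ile-AAT-1-7 inside ATP8A (1.11 ± 0.14). At that peak OreR had 30.9, 19.9 and 21.5 CPM and H3.3S31A 49.3, 55.6 and 50.9 CPM. The replicative histone genes had 0 peaks in the table.

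H3.3S31A was also set against the other altered genotypes at day 1, to place its differences from OreR beside those genotypes. These comparisons use the same H3.3S31A libraries as the one with OreR, so their values stand side by side. The shared libraries favour the same direction in both, so agreement in direction is no test. Against H3.3H3.2, 51 peaks were called (0.458%), 16 higher (0.144%) and 35 lower (0.314%), and the unadjusted p was under 0.05 at 902 (8.09%). Among the 1171 peaks that differed from OreR, 16 (1.37%) also differed from H3.3H3.2, each in the same direction as from OreR. For 880 of the 1171 (75.1%) the 95% interval of the difference from H3.3H3.2 lay within ± 0.5 on the log2 scale. At the others it reached beyond 0.5.

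Against H3.3null, 1822 peaks were called (16.3%), 752 higher (6.75%) and 1070 lower (9.6%), and the unadjusted p was under 0.05 at 3100 (27.8%). Of the 1171 peaks, 311 (26.6%) also differed from H3.3null, 253 in the same direction as from OreR and 58 in the opposite one. The 4 called Stellate peaks were among the 58. The 95% interval lay within ± 0.5 at 607 of the 1171 peaks (51.8%).

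**Figure D4:**
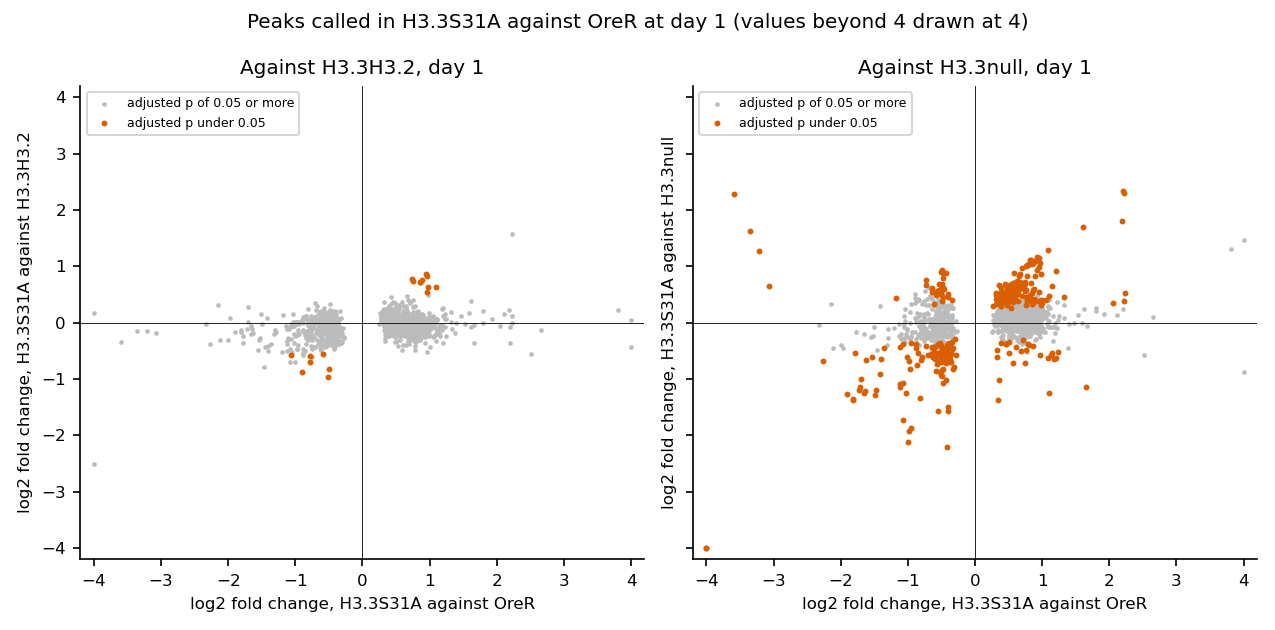
Log2 fold change of H3.3S31A over H3.3H3.2 (left) and over H3.3null (right) on the y axes, against that over OreR on the x axes, for the 1171 peaks called against OreR at day 1. Orange peaks, 16 on the left and 311 on the right, passed an adjusted p of 0.05 in the test of the y axis; the x and y values share the H3.3S31A libraries, so their relation is not itself a result.

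A set of 10 peaks differed from OreR, from H3.3H3.2 and from H3.3null in the same direction, 8 higher and 2 lower. They were chosen after their values were seen, and all 3 comparisons share the H3.3S31A libraries, which favours the same direction. Of the 10, 3 adjoined at sturkopf, a lipid droplet protein, and Herc4, a ubiquitin ligase, on 3L. At sturkopf (3L:1311926-1313314) OreR had 90.3, 113 and 114 CPM, H3.3S31A 197, 206 and 213 CPM, H3.3H3.2 120, 153 and 150 CPM, and H3.3null 107, 98.2 and 105 CPM. The mutant H3.3S31A stood above every other library of day 1, and H3.3H3.2 lay between. Its log2 fold change was 0.96 ± 0.11 over OreR (edgeR adjusted p = 4.1e-08), 0.54 ± 0.11 over H3.3H3.2 (edgeR adjusted p = 0.0077) and 0.99 ± 0.11 over H3.3null (edgeR adjusted p = 1.1e-08).

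The peaks of Herc4 (3L:1313566-1313854 and 3L:1313946-1315601) were higher by 1.09 ± 0.14 and 0.97 ± 0.13 over OreR. The broader one had 102, 103.8 and 101 CPM in OreR, 199, 201 and 202 CPM in H3.3S31A, and a wide 94, 162 and 134 CPM in H3.3H3.2. Neither neighbour was called: the peak of Nt5a and Ctr9 on one side (3L:1307020-1307618) was at -0.08 ± 0.10 and the one between Herc4 and Myo61F on the other (3L:1318315-1318536) at -0.14 ± 0.18.

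PGRP-LA, a peptidoglycan recognition gene, was the next (3L:9337459-9338602), with 61.6, 59.7 and 73.2 CPM in OreR, 91.6, 143 and 144 CPM in H3.3S31A, 73.8, 64.4 and 69.7 CPM in H3.3H3.2, and 84.2, 91.9 and 82.3 CPM in H3.3null. H3.3S31A replicate 1 lay just below the highest H3.3null library, while the other two were above every library of the other genotypes. The log2 differences were 0.95 ± 0.15, 0.86 ± 0.15 and 0.54 ± 0.15 from OreR, H3.3H3.2 and H3.3null. At day 10 the difference from OreR was 1.16 ± 0.15 (edgeR adjusted p = 1.4e-06).

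Gfrl, a receptor related to those of the GDNF family (3R:20464235-20464554), had tight replicates: 35.7, 37.2 and 35.7 CPM in OreR and 61.4, 62.4 and 60.1 CPM in H3.3S31A (log2 0.76 ± 0.14). The lower pair were at Ugt303B3, a UDP-glycosyltransferase gene, and inside aop, which encodes the ETS repressor Yan. At Ugt303B3 (3R:23533157-23533553) OreR had 78.2, 78.9 and 77.8 CPM and H3.3S31A 46, 42.3 and 47.9 CPM (log2 -0.78 ± 0.10). At aop (2L:2162465-2162767) OreR had 33.2, 28.2 and 29.7 CPM and H3.3S31A 23, 21 and 20.4 CPM (log2 -0.49 ± 0.14), a call lost against OreR with the compared groups fitted alone and without H3.3S31A replicate 2 or 3 or OreR replicate 1. At day 10 neither Gfrl (0.38 ± 0.14, edgeR adjusted p = 0.080) nor aop (-0.14 ± 0.14, edgeR adjusted p = 0.73) was called, while the other 8 were called again against OreR. The difference from H3.3H3.2 was not tested at day 10. At sturkopf H3.3S31A had 195, 187 and 164 CPM and H3.3H3.2 152, 139 and 197 CPM, and the groups overlapped. The groups also overlapped at the broader Herc4 peak, with 176, 184 and 186 CPM in H3.3S31A and 148, 136 and 180 CPM in H3.3H3.2.

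The last 3 were broad peaks near the centromere of chromosome 3, inside Pzl, a gene related to the Piezo channels (3R:2952219-2959803), lovit, a transporter gene known from photoreceptors (3L:25567652-25572900), and l(3)80Fg (3L:25896400-25903866). At Pzl the libraries had 846, 1054 and 1152 CPM in OreR and 1767, 1774 and 1972 CPM in H3.3S31A (log2 0.85 ± 0.17). The values were 0.95 ± 0.18 at lovit and 0.89 ± 0.18 at l(3)80Fg. Of the 25 pericentromeric peaks of chromosome 3 wider than 4000 bp, 4 were higher, these 3 and one 61814 bp from nvd (0.86 ± 0.18). A single one was lower, in another part of lovit (-0.95 ± 0.13), and the other 20 lay between -0.32 and 0.26. The H3.3null libraries were spread at these sites, with 615, 825 and 1246 CPM at Pzl. Whether these broad peaks share repeated sequence was not tested.

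**Figure D5:**
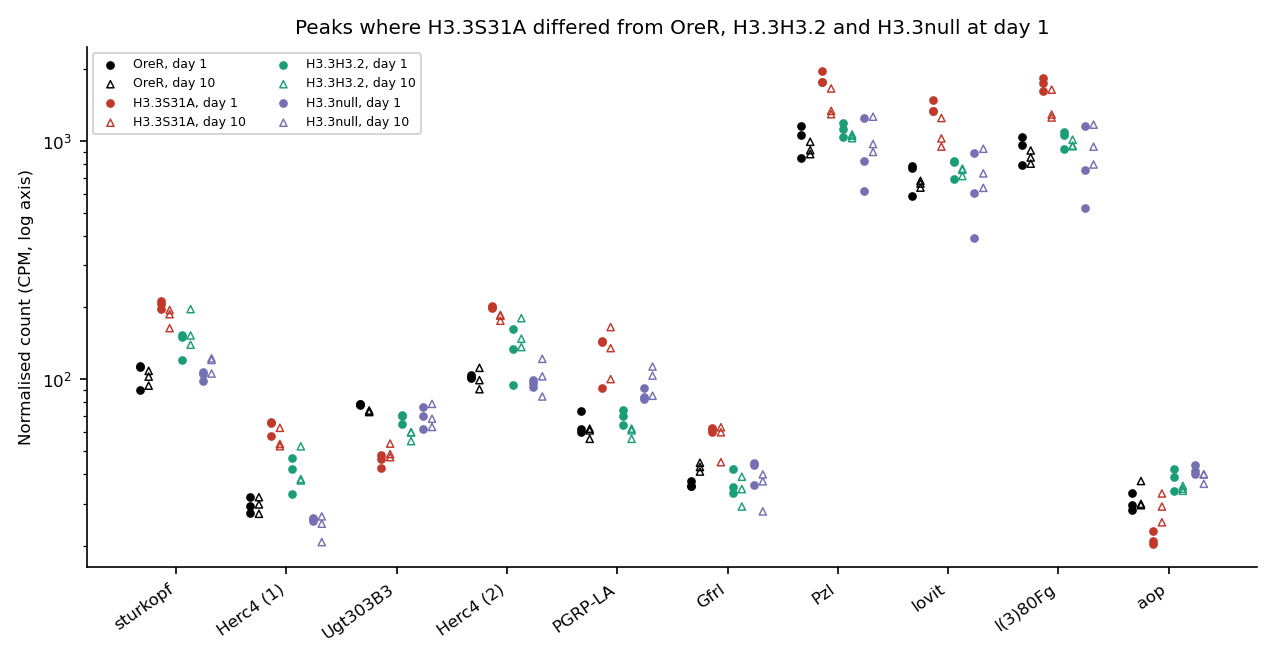
Normalised counts (CPM, log axis) of each library at the 10 peaks where H3.3S31A differed from OreR, H3.3H3.2 and H3.3null at day 1; filled circles are day 1 and open triangles day 10. At sturkopf the H3.3S31A libraries of day 1 lie between 197 and 213 CPM, above all other libraries of day 1.

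The set was sensitive to single libraries. All 10 peaks passed all 3 tests with DESeq2, 9 with the replicate number as a block and 8 with each pair of groups fitted alone. Without H3.3S31A replicate 1, 2 or 3, the number was 6, 4 or 3.

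Of the 51 peaks called against H3.3H3.2, the 2 with the smallest p were at CG4686 on 3R and were not called against OreR. The one at Mrp5 (3R:19866345-19866632) had 20, 21.3 and 23 CPM in OreR, 21.3, 13.6 and 17.1 CPM in H3.3S31A and 44.6, 40.6 and 44.5 CPM in H3.3H3.2. There H3.3S31A was below H3.3H3.2 by a log2 difference of -1.30 ± 0.18 (edgeR adjusted p = 4.7e-05). At Shawl, a potassium channel gene (2L:9414984-9415409), the H3.3S31A libraries were below both, with 44.9, 49.3 and 47 CPM against 106, 69.7 and 88.3 CPM in OreR and 87.7, 82.2 and 88.5 CPM in H3.3H3.2. H3.3null had 45.5, 56.2 and 55.7 CPM at that peak. At mod(mdg4) the peak that was lower than in OreR was also lower than in H3.3H3.2 (-0.97 ± 0.15) and higher than in H3.3null (0.59 ± 0.16).

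The day 10 libraries, which share none with those of day 1, gave a second measurement of the same contrast. At day 10, 1137 peaks were called (10.2%), 717 higher (6.43%) and 420 lower (3.77%). At day 10, 553 of the 695 higher and 276 of the 476 lower peaks passed again with the same sign, and 682 and 460 had the same sign. Of all 11145 peaks, called or not, 7223 had the same sign at both ages. Stock and genotype are joined at both ages and cannot be told apart at either. A test of the change in the contrast between the ages called 0 peaks (0.0%) with edgeR and 0 with DESeq2, and 389 peaks (3.49%) had an unadjusted p under 0.05. Some calls of day 1 had small values at day 10, such as nAChRalpha6 (0.65 at day 1 and -0.11 at day 10 at its higher peak) and grh (-1.01 and -0.24), without a call in that test.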

How the data were processed

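ATAC-seq read counts per peak came deposited by the authors in 1 table, with the same peaks for all 24 libraries; 0 columns were left unused. Per the submitters' processing notes the build is dm6 and the tools include STAR 2.7.7a, SAMtools 1.9, bedtools 2.26, deepTools 3.2.0, featureCounts of Subread 2.0.1 and DESeq2 1.34.0; the peak caller, duplicate handling, read shift and counting rule are not given in the sources used here. The labels' extraction text describes RNA libraries, which goes against the genomic DNA they name, and the numbers were taken to be ATAC-seq counts, as the design text has it. Counts carry no molecular identifiers, so floors of 3 counts cover counting error only.

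The fit used edgeR 4.0.16, limma 3.58.1 and R 4.3.3, with TMM scaling, filterByExpr (0 peaks removed), 1 coefficient per group over all 24 libraries (16 residual degrees of freedom), robust glmQLFit and glmQLFTest, and Benjamini-Hochberg adjustment over 11145 peaks. The common coefficient of variation was 8.96%. The script was tested on simulated data. Alternatives were DESeq2 1.42.0, RLE factors, library totals, a minimum mean of 100 counts, the compared groups alone, a replicate block, 2R left out, a minimum log2 change of 1 and each replicate left out.

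Gene names came from RefSeq's Release 6 table, which has no strand or exons, so a gene's start and other end are 1 class, and a peak was given to genes within 2000 bp. Named peaks were the 12 with the smallest p in each direction whose groups did not overlap, the leading peak of each list and region, the peaks of His3.3A and His3.3B, and absent peaks; other called peaks of the lists and the peaks distinct from all genotypes were chosen after their values were seen. The peaks, lists and comparisons were chosen with earlier results of these data known. Of the list entries ubn, DLP, ebony, rad, tequila and nos had no match.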

Additional observations from a re-analysis of the deposited data

How the results depend on the processing

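The count of calls against OreR at day 1 was 1171, and 904 to 1225 with 1 replicate left out. It was 595 with 2R left out and 141 with a minimum log2 change of 1; at day 10 these settings gave 569 and 188 in place of 1137, and 873 to 1037 with 1 replicate left out. With DESeq2 it was 1242, with RLE factors 1185 (672 higher, 513 lower), with library totals 1197 (731 higher, 466 lower) and, in an alternative chosen after seeing the data, 915 outside the raised part of 2R. Against H3.3H3.2 the 51 calls became 85 with DESeq2, 77 with the replicate block, 4 with a minimum log2 change of 1 and 26 to 36 with 1 replicate left out. Against H3.3null the 1822 calls became 209 with that minimum and 1308 to 1596 with 1 replicate left out. The change of the contrast between ages gave 0 calls in every setting run. Of 62 named called peaks, 6 lost their call with the compared groups alone, 2 with the block and 1 to 5 without 1 replicate; with DESeq2, RLE factors and library totals 0 did, and 0 changed direction in any setting.

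Replicate numbers are shared between groups, but same-numbered libraries of H3.3S31A and OreR correlated at -0.01, -0.21 and 0.35 in their deviations from the group means, and H3.3S31A replicate 2 correlated best with OreR replicate 1 (0.42), so the numbers were not taken to pair the libraries. With the replicate block 1307 peaks were called against OreR at day 1 (714 higher, 593 lower). With a median SE of 0.12 at 3501589 to 4580984 counts a library, small log2 differences were not detectable.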
